A study of Mus musculus with 4 samples.

Results

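The 29 genes described here encode the glutamate receptors of mouse retina and the proteins that assemble with them. They were chosen by name, as ionotropic AMPA, kainate, NMDA and delta receptor subunits, metabotropic receptors and auxiliary or anchoring proteins, and all 29 were found among the 43280 genes of the deposited table. The table comes from 4 mRNA sequencing libraries of dissected whole retina of wildtype mice, strain C6/BL6J in the labels, 2 from citrate-injected controls and 2 from mice made diabetic with streptozotocin (STZ), which destroys pancreatic beta cells. STZ was given at 50 mg/kg on each of 5 days from 6 weeks of age, blood glucose above 25 mM was checked 10 days later, and retinas were taken from both groups at 18 weeks of age, by the protocols; the time in the column names differs from these ages. The libraries are named by group and by the tag of their column, 2L or 4R, and pairs of values are given with 2L first. Whether the libraries of a group stem from different mice is not stated in the labels, so the p-values reflect the scatter between libraries, which may be technical. The question was how diabetes alters retinal gene expression.

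Glutamate is the transmitter of photoreceptors, bipolar cells and ganglion cells, so nearly every retinal signal on its way to the optic nerve passes through these receptors. AMPA and kainate receptors are fast cation channels that carry most of the transmission in OFF bipolar, horizontal, amacrine and ganglion cells. NMDA receptors are slower, calcium-permeable channels found mainly on amacrine and ganglion cells, and metabotropic receptors act through G proteins, many of them at nerve terminals that they inhibit. In a whole-tissue sample, fewer cells of a type and less RNA per cell cannot be told apart.

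The libraries held between 29352330 and 39299653 reads assigned to genes. The 8 rod markers took 7.33 to 10.5% of reads, and none of the markers of rods, cones, bipolar, horizontal, amacrine or ganglion cells or of Müller glia was at 0 in any library. STZ 2L stood apart: the 10 lens markers took 7.45% of its reads and at most 0.0146% of any other library. All 10 markers of cornea and conjunctiva epithelium lay higher in both STZ libraries, with summed normalized counts of 11883 and 11608 against 1878 and 890 in controls. Markers of the neurons that carry most of these receptors lay slightly lower in STZ, with median log2 fold changes of -0.15 for bipolar, -0.09 for amacrine and -0.08 for ganglion cells, and 0 of these 27 genes passed in limma (1 of them, a bipolar marker, had an unadjusted p under 0.05). All 8 cone markers were lower in STZ, with a median of -0.36, and 2 of them had an unadjusted p under 0.05 while 0 passed in limma. Control 2L also stood apart: its 6 pigment epithelium markers summed to 1946 normalized counts, against 5689 in control 4R and 5990 and 5388 in STZ.

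No difference between diabetic and control retinas was detectable in any of the 29 genes at this depth and number of libraries. Of 29 tested, 0 passed an adjusted p of 0.05 in limma, as was true of 0% of all 18127 genes tested, and 0 had an unadjusted p under 0.05, against 2.76% of all genes. On recovered whole reads edgeR's quasi-likelihood test and DESeq2 also gave 0 members past an adjusted p of 0.05. Of the same 18127 genes edgeR called 0%, and DESeq2 called 0.277% of the 18778 genes with an adjusted p. At an unadjusted p under 0.05 both tests again gave 0 members, against 3.27% of the 18127 genes in edgeR. In DESeq2 the share was 2.06% of 29729 genes, a set that was not filtered on low values. The authors' deposited table called 0.281% of its genes and no member. Both STZ libraries lay above both controls for 5 members and below them for 3, against 14.3% of all genes in each direction. The 8 members whose groups did not overlap are thus near the background of 28.7%. In limma 16 members were higher in STZ and 13 lower, where 48.9% of all genes were higher and 51.1% lower. The median log2 fold change was 0.03 over the members and -0.01 over all genes tested.

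**Figure D1:**
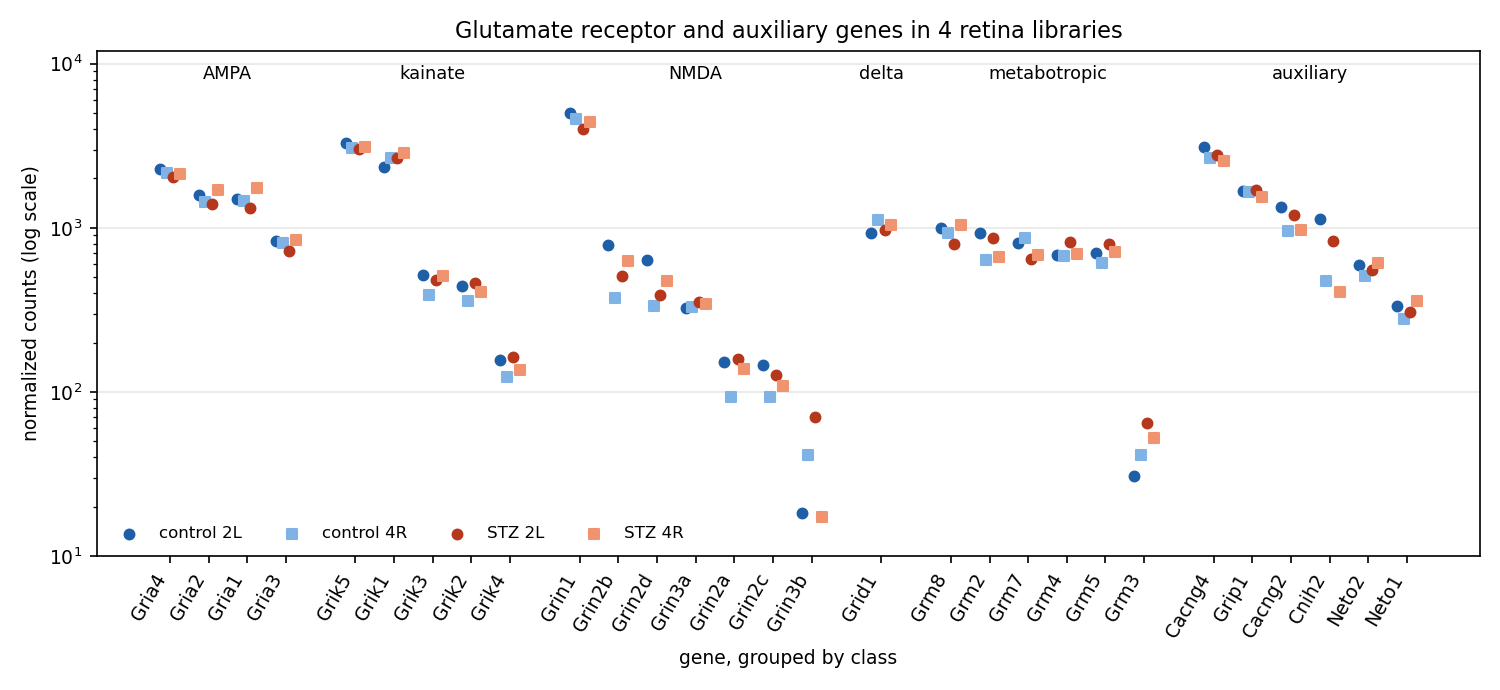
Normalized counts on a log axis of each of the 29 genes in each of the 4 libraries, grouped by class and ordered within a class by mean level. The 4 points of most genes lie close together, and the widest vertical spreads are those of Grin3b, Cnih2, Grin2b and Grm3.

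AMPA receptors are tetramers of the subunits Gria1 to Gria4, and the subunit mix sets their speed and calcium permeability. Gria4 read 2298 and 2168 normalized counts in controls against 2041 and 2141 in STZ. Both STZ libraries lay below both controls for this subunit, which forms rapidly gated channels, but the log2 difference of -0.09 ± 0.15 (SE; 95% interval -0.45 to 0.26) did not pass in limma. Gria2, the subunit that makes AMPA receptors nearly impermeable to calcium, read 1593 and 1434 in the controls and 1401 and 1695 in STZ 2L and 4R. Gria1 read 1497 and 1467 in controls and 1323 and 1751 in STZ, and Gria3 read 837 and 810 in controls and 725 and 841 in STZ. For these 3 subunits STZ 2L was the lowest library and STZ 4R the highest, so the groups overlapped.

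Calcium block by Gria2 depends on RNA editing, by the deaminase ADAR2, of the glutamine codon at the pore position called the Q/R site. The coding stretches around that codon in GENCODE M21 transcripts (mm10) are shown because they carry the position on which the role of Gria2 rests and show how alike the subunits are; capitals mark the glutamine codon as the genome encodes it.
Gria1: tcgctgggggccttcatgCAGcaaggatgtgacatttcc
Gria2: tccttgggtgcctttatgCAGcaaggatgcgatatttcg
Gria3: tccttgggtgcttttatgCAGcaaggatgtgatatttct
Gria4: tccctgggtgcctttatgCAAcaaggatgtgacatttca
Grik1: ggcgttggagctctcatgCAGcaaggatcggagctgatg
Grik2: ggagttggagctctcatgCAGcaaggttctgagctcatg
The AMPA stretches lie within single coding exons, at chr11:57243076-57243114 (plus strand, exon 11 of Gria1), chr3:80706893-80706931 (minus strand, exon 11 of Gria2), chrX:41610247-41610285 (plus strand, exon 11 of Gria3) and chr9:4464119-4464157 (minus strand, exon 12 of Gria4). The kainate subunits Grik1 (chromosome 16) and Grik2 (chromosome 10), edited at the same position, have an exon boundary inside the window. Gene counts do not separate edited from unedited RNA, so editing was not measured here. The longest identical coding stretch between 2 members was 56 bases, in Gria2 and Gria3, followed by 55 in Gria2 and Gria4. Reads that fall wholly within such stretches could have been assigned to either subunit or dropped.

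Because longer transcripts give more reads, subunits were compared with each other per kilobase of coding sequence. On this scale Gria4 made up 36.7% of the AMPA total in controls, Gria2 25.4%, Gria1 24.2% and Gria3 13.7%. The share of Gria2 was 26.0% (95% counting interval 24.8 to 27.2) and 24.8% (23.7 to 25.9) in the controls, and 25.9% (24.7 to 27.1) and 26.8% (25.8 to 27.8) after STZ. The groups overlapped, with means of 25.4% ± 0.852 in controls and 26.3% ± 0.610 in STZ (SD, n = 2; exact permutation test, two-sided, p = 0.667). With 2 libraries against 2, the smallest p this test can give is 0.333. Gria2 has long untranslated regions, and per kilobase of all annotated exons its share in controls was 12.5%, so its place among the AMPA subunits depends on the length used, while Gria4 led on both.

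Kainate receptors are best known in retina from OFF cone bipolar cells. The class was dominated by Grik5, a high-affinity subunit that needs a partner, and Grik1, a pore-forming subunit of those bipolar cells. Grik5 read 3282 and 3081 normalized counts in controls and 3043 and 3123 in STZ 2L and 4R, with overlapping groups. Grik1 read 2364 and 2679 in controls and 2682 and 2865 in STZ, so both STZ libraries lay above both controls. The gap between the nearest libraries was small, control 4R standing just below STZ 2L, and the log2 difference of 0.14 ± 0.16 (95% interval -0.22 to 0.50) did not pass in limma.

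The other 3 kainate subunits were lower per coding kilobase, at control means of 164 (Grik3), 147 (Grik2) and 48.6 (Grik4). Grik3, a low-affinity subunit, read 513 and 391 normalized counts in controls and 481 and 509 in STZ, and Grik2, the main kainate subunit of many brain neurons, read 441 and 357 against 461 and 404. Grik4, the second high-affinity subunit, read 156 and 123 in controls and 162 and 136 in STZ. All 3 overlapped between groups, and control 4R was lowest for each. Per coding kilobase, the high-affinity pair Grik4 and Grik5 held 49.9 and 47.4% of the kainate total in controls, and 45.9 and 45.3% in STZ. This was the one share of the 7 examined in which the groups did not overlap. The means were 48.6% ± 1.77 in controls and 45.6% ± 0.429 in STZ (SD, n = 2; exact permutation test, two-sided, p = 0.333, 0.778 adjusted over the 7 shares).

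NMDA receptors pair the obligatory subunit Grin1 with Grin2 subunits, which bind glutamate and set channel kinetics, or with Grin3 subunits, which bind glycine and lower calcium flow. Grin1 read 4977 and 4622 normalized counts in controls and 4019 and 4429 in STZ 2L and 4R. Both STZ libraries were below both controls. The log2 difference was -0.18 ± 0.15 (95% interval -0.53 to 0.16), which did not pass in limma.

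The Grin2 subunits varied more between the 2 controls than between the groups. Grin2b, which gives slowly closing channels and is typical of developing circuits, read 788 and 371 normalized counts in controls and 509 and 624 in STZ. Grin2d, with still slower kinetics, read 636 and 333 in controls and 387 and 476 in STZ. For both, the controls were the highest and the lowest library, and the STZ libraries lay between them. Grin2a, the faster subunit of mature synapses, read 151 and 92.5 in controls and 158 and 139 in STZ, and Grin2c, known mainly from cerebellar granule cells, read 147 and 92.5 against 128 and 108. Again control 4R was lowest for each. All 4 Grin2 genes were over 1.5 times higher in control 2L than in control 4R, at ratios of 2.12 (Grin2b), 1.91 (Grin2d), 1.63 (Grin2a) and 1.59 (Grin2c), while Grin1 had a ratio of 1.08. Cnih2 was the fifth member past 1.5 in that direction, as were 9.09% of all tested genes, and Grin3b alone exceeded it the other way, as did 9.64%. The equivalent counts in STZ were 2 members with 2L above 4R (Cnih2 and Grin3b; 14.6% of all genes) and 0 with 4R above 2L (8.32%). For the 4 Grin2 genes, named in the same order, the ratios of STZ 2L to STZ 4R were 0.815, 0.814, 1.14 and 1.18.

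Summed per coding kilobase and set against Grin1, the Grin2 subunits stood at 23.8% in control 2L (95% counting interval 22.4 to 25.2) and 13.3% in control 4R (12.3 to 14.3), with 20.2 and 20.9% in the STZ libraries. The STZ values fell inside the span of the controls (18.5% ± 7.43 and 20.5% ± 0.453, SD, n = 2; exact permutation test, two-sided, p = 1). Summed amacrine markers were also higher in control 2L than in control 4R, at 35702 against 30779 normalized counts, and ganglion cell markers stood at 41308 against 40423. Single markers of both lists went both ways. In the same order of controls, the amacrine marker Slc6a9 read 11658 against 8037 and Gad1 7955 against 9554. The ganglion cell marker Sncg read 5521 against 2678 and Nefl 17036 against 19763. Pigment epithelium markers were lower in control 2L, at 1946 against 5689. The part of these cells in the Grin2 difference was not tested. Grin2a took 16.3 and 20.2% of the Grin2a and Grin2b total in controls and 24.0 and 18.4% in STZ, so Grin2b was the more abundant of the pair per coding kilobase in all 4 libraries. The transcripts of Grin2b carry more untranslated sequence, and per kilobase of exons the share of Grin2a in controls was 23.3%.

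Grin3a, the more widely expressed Grin3 subunit, was steady within groups at 325 and 329 in controls and 356 and 343 in STZ. Both STZ libraries were higher, by 0.09 ± 0.22 on the log2 scale, and this did not pass in limma. Grin3b, known mainly from motor neurons, was near the lower end of what could be measured, at 18.2 and 41.2 normalized counts in controls and 70.7 and 17.4 in STZ, from 16 to 67 reads. STZ 2L was about 4.07 times STZ 4R for this gene. Of its exon bases, 32.1% overlap Tmem259 on the opposite strand, which read 3414 to 4677 normalized counts. The strand setting of the counting is not given in the sources used here, so reads of the 2 genes cannot be told apart there.

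Grid1, the delta subunit of the set, is a synapse organiser that binds cerebellins and is not opened by glutamate in the usual way. It read 935 and 1116 normalized counts in controls and 974 and 1048 in STZ. The STZ libraries lay between the controls, with a log2 difference of -0.02 ± 0.18.

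The 6 metabotropic members ranged from 182 (Grm5) to 354 (Grm8) normalized counts per coding kilobase in controls, except Grm3 at 13.6. Grm8, a presynaptic receptor of photoreceptors and other neurons that lowers transmitter release, read 998 and 931 normalized counts in controls and 802 and 1034 in STZ. Grm4, a receptor of the same group III, read 680 and 677 in controls and 816 and 696 in STZ. Both STZ libraries exceeded both controls for Grm4, though STZ 4R by little, and the log2 difference was 0.15 ± 0.19. Grm5, which couples to phospholipase C, read 702 and 613 in controls and 793 and 713 in STZ, again with both STZ libraries higher and a log2 difference of 0.20 ± 0.19. Grm2, which marks starburst amacrine cells among others, read 936 and 636 in controls and 862 and 666 in STZ. It was high in both 2L libraries and low in both 4R libraries, and its groups overlapped.

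Grm7, a low-affinity presynaptic receptor of bipolar cell terminals (chromosome 6, 110645581 to 111567230, plus strand), had the smallest p of the 29. It read 813 and 867 normalized counts in controls against 643 and 681 in STZ. The libraries of a group lay close together and the groups apart, with means of 840 ± 38.1 and 662 ± 27.5 normalized counts (SD, n = 2). The log2 difference was -0.34 ± 0.18 (95% interval -0.75 to 0.07; limma, unadjusted p of 0.0910, adjusted p = 0.999), and in the authors' deposited table it was -0.34 with an adjusted p of 1.00. It ranged from -0.39 to -0.30 when each library was left out in turn, and without STZ 2L it was near the upper end, at -0.30. Summed markers of bipolar cells, which carry much of this receptor, read 47670 and 46013 in controls and 38853 and 43759 in STZ, also lower in both STZ libraries. Of the 10 markers, 5 had both STZ libraries below both controls, among them Pcp2 at 8013 and 7524 against 5415 and 5270. The rest overlapped between groups, such as Prkca at 9232 and 9235 in controls and 7577 and 10433 in STZ. The part of bipolar cells in the Grm7 difference was not tested.

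Grm3, a group II receptor found on glia as well as neurons (chromosome 5, 9485541 to 9725170, minus strand), had the largest log2 difference, 0.69 ± 0.43 (95% interval -0.30 to 1.68; limma, adjusted p = 0.999). It read 30.7 and 41.2 normalized counts in controls and 64.4 and 52.1 in STZ 2L and 4R, with 27 reads in its lowest library. Both STZ libraries were above both controls, at a level where counting error is large, and without STZ 2L the log2 difference was 0.54. Müller glia markers had a median log2 fold change of 0.04. Per coding kilobase, the group II receptors Grm2 and Grm3 held 25.1 and 19.4% of the total of the 6 metabotropic members in controls and 25.3 and 20.3% in STZ, a split that followed the column tag and not the group.

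Among the auxiliary proteins, Cacng4 and Cacng2 are transmembrane AMPA receptor regulatory proteins that carry AMPA receptors to the surface and slow their closing. Cacng4 read 3115 and 2680 normalized counts in controls and 2773 and 2548 in STZ, and Cacng2, also called stargazin, read 1344 and 954 against 1199 and 971. Both overlapped between groups. Of the pair, Cacng4 held 69.6 and 73.5% per coding kilobase in controls and 69.6 and 72.2% in STZ.

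Cnih2, a cornichon protein that exports AMPA receptors from the endoplasmic reticulum and slows their gating (chromosome 19, 5092868 to 5098521, minus strand), followed the column tag. It read 1127 in control 2L and 828 in STZ 2L, but 476 in control 4R and 407 in STZ 4R. The 2L library was 2.37 times the 4R library in controls and 2.04 times in STZ, while the log2 difference between groups was -0.33 ± 0.44. Both 2L libraries lay above both 4R libraries for 9 of the 29 members, against 21.2% of all tested genes, and below them for 1 member, Grid1, against 21.7%. Together these 10 members compare with 42.8% of all tested genes. What the tags stand for is not given in the sources used here.

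Neto1 and Neto2 are auxiliary subunits of kainate receptors. Neto2 read 593 and 506 normalized counts in controls and 550 and 614 in STZ, and Neto1 332 and 280 against 306 and 357. The share of Neto2 in the pair was the steadiest of the 7 shares, between 62.3 and 63.6% in all 4 libraries. Grip1, a scaffold protein that binds the tails of Gria2 and Gria3, read 1677 and 1647 in controls and 1711 and 1538 in STZ. Its controls lay between the STZ libraries.

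**Figure D2:**
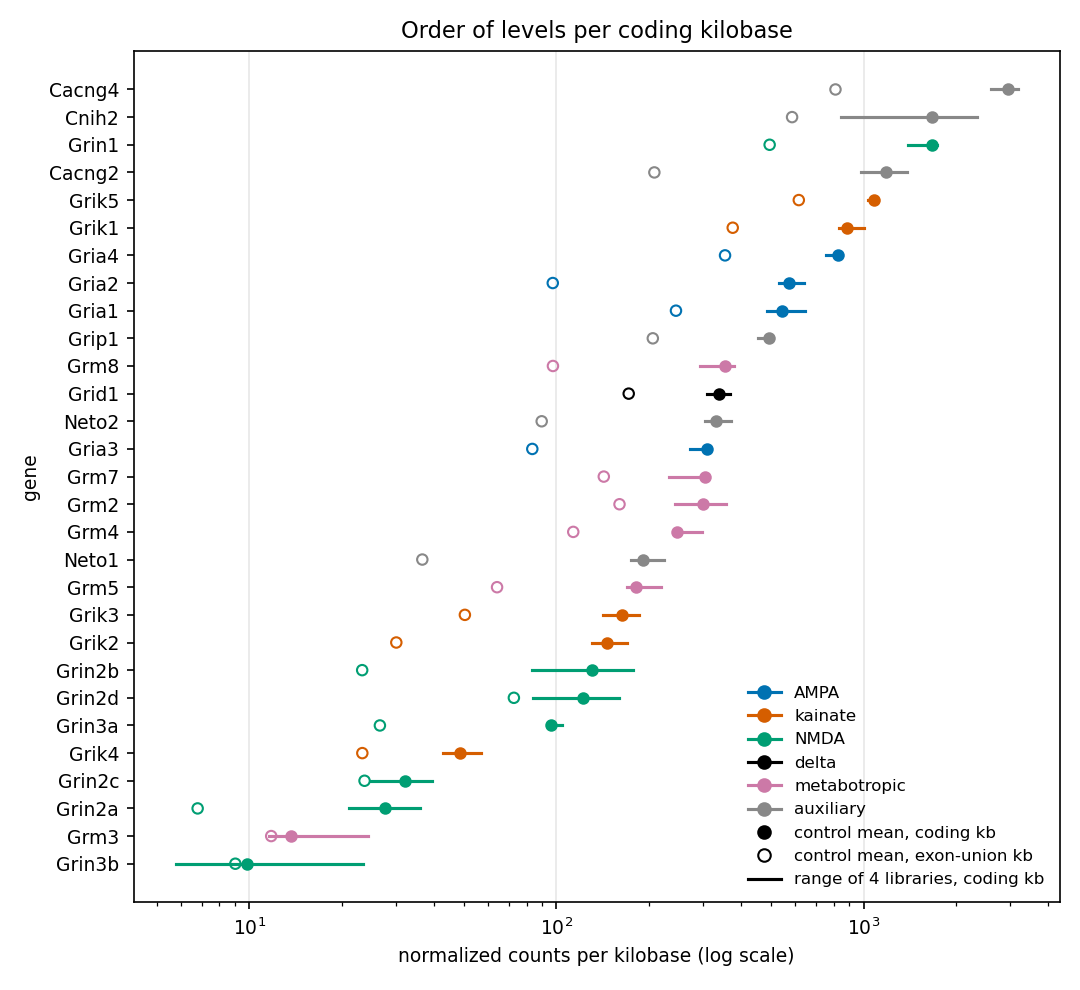
Level of each gene per kilobase on a log axis: filled circles are control means per coding kilobase with the range of the 4 libraries as a line, open circles are control means per kilobase of all annotated exons. Genes are ordered by the filled circles, with Cacng4 at the top and Grm3 and Grin3b at the bottom; open circles fall furthest below filled ones where untranslated regions are long, as in Cacng2, Gria2 and Grin2b.

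Ordered by control level per coding kilobase, Cacng4 (2953 ± 314 normalized counts per coding kilobase, SD, n = 2) came first, followed by Cnih2 (1670 ± 959), Grin1 (1668 ± 87.2), Cacng2 (1186 ± 285), Grik5 (1083 ± 48.4), Grik1 (886 ± 78.1) and Gria4 (825 ± 34.2). Gria2, Gria1 and Grip1 completed the 10 highest, at 571 ± 42.4, 544 ± 7.81 and 492 ± 6.45. At the other end stood Grik4 (48.6 ± 8.16), Grin2c (32.2 ± 10.3), Grin2a (27.8 ± 9.45), Grm3 (13.6 ± 2.82) and Grin3b (9.88 ± 5.42). Of the 28 pairs of neighbours in this order, 20 had overlapping ranges over the 4 libraries. The 8 separate steps lay between Cacng4 and Cnih2, Grin1 and Cacng2, Grik5 and Grik1, Gria4 and Gria2, Grip1 and Grm8, Grm4 and Neto1, Grin3a and Grik4, and Grik4 and Grin2c. Per kilobase of all exons the order opened with Cacng4 (810), Grik5 (616), Cnih2 (585), Grin1 (495), Grik1 (375) and Gria4 (354), and 9 of the 10 highest were shared with the coding order, Gria2 leaving them.

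By class and per coding kilobase, kainate subunits held 27.7% of the summed level of the receptor members in controls, AMPA 26.8%, NMDA 24.8%, metabotropic receptors 16.7% and Grid1 4.05%. The kainate total was 2350 and 2306 in controls and 2379 and 2450 in STZ, and the AMPA total was 2315 and 2185 against 2041 and 2390. These 2 classes thus stood at like levels, and the AMPA total exceeded the kainate total in none of the 4 libraries. The NMDA total, 2243 and 1930 in controls and 1807 and 1967 in STZ, came mostly from Grin1, which made up 80.2% of it in controls. Metabotropic totals were 1473 and 1331 in controls and 1399 and 1352 in STZ. Per kilobase of all exons the class shares in controls were 33.3% kainate, 23.7% AMPA, 19.9% NMDA and 17.9% metabotropic.

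**Figure D3:**
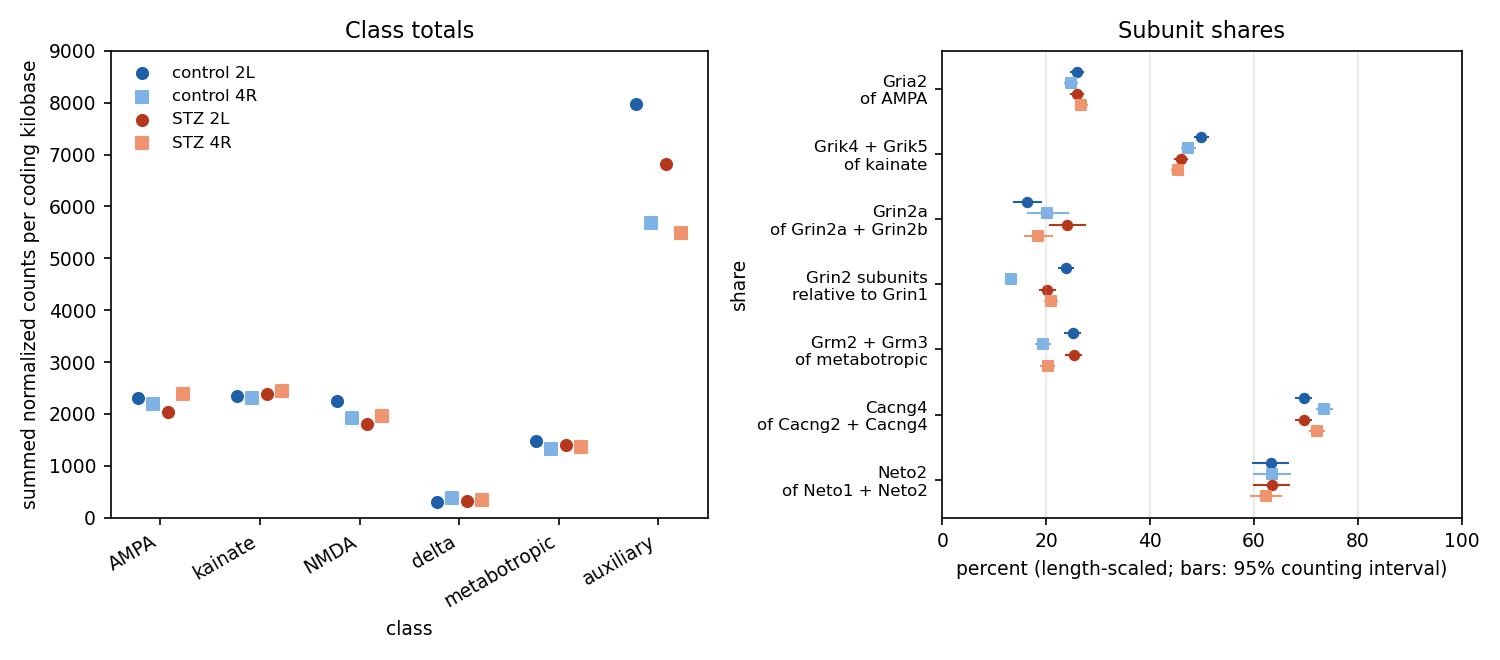
Left, summed normalized counts per coding kilobase of each class in each library; right, the 7 subunit shares in percent with 95% counting intervals. The groups overlap in all classes except kainate, where the 4 totals lie between 2306 and 2450, and in all shares except that of Grik4 and Grik5.

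The groups overlapped in 5 of the 6 class totals. The kainate total was the exception, higher in both STZ libraries by 0.05 on the log2 scale (2328 ± 31.6 against 2414 ± 50.2, SD, n = 2; exact permutation test, two-sided, p = 0.333, 1.00 adjusted over the 6 classes). NMDA stood at -0.14, auxiliary proteins at -0.14, AMPA at -0.03, metabotropic receptors at -0.03 and Grid1 at -0.02, none of them separated from the spread between libraries.

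The width of the intervals shows how large a difference could have been missed. The 95% limma interval of the fold change lay within 2-fold in either direction for 25 of 29 members, against 66.7% of all tested genes, and within 1.5-fold for 15. The exceptions to 2-fold were Grin3b, Grm3, Cnih2 and Grin2a. Grin3b, Grm3 and Grin2a were among the 4 members with under 100 reads in some library, the other being Grin2c, and the libraries of Cnih2 differed by tag. The log2 differences of all 29 ran from -0.34 (Grm7) to 0.69 (Grm3), 24 of them within 0.3 of 0. The shares of all tested genes within 1.5-fold and within 0.3 were not counted.

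**Figure D4:**
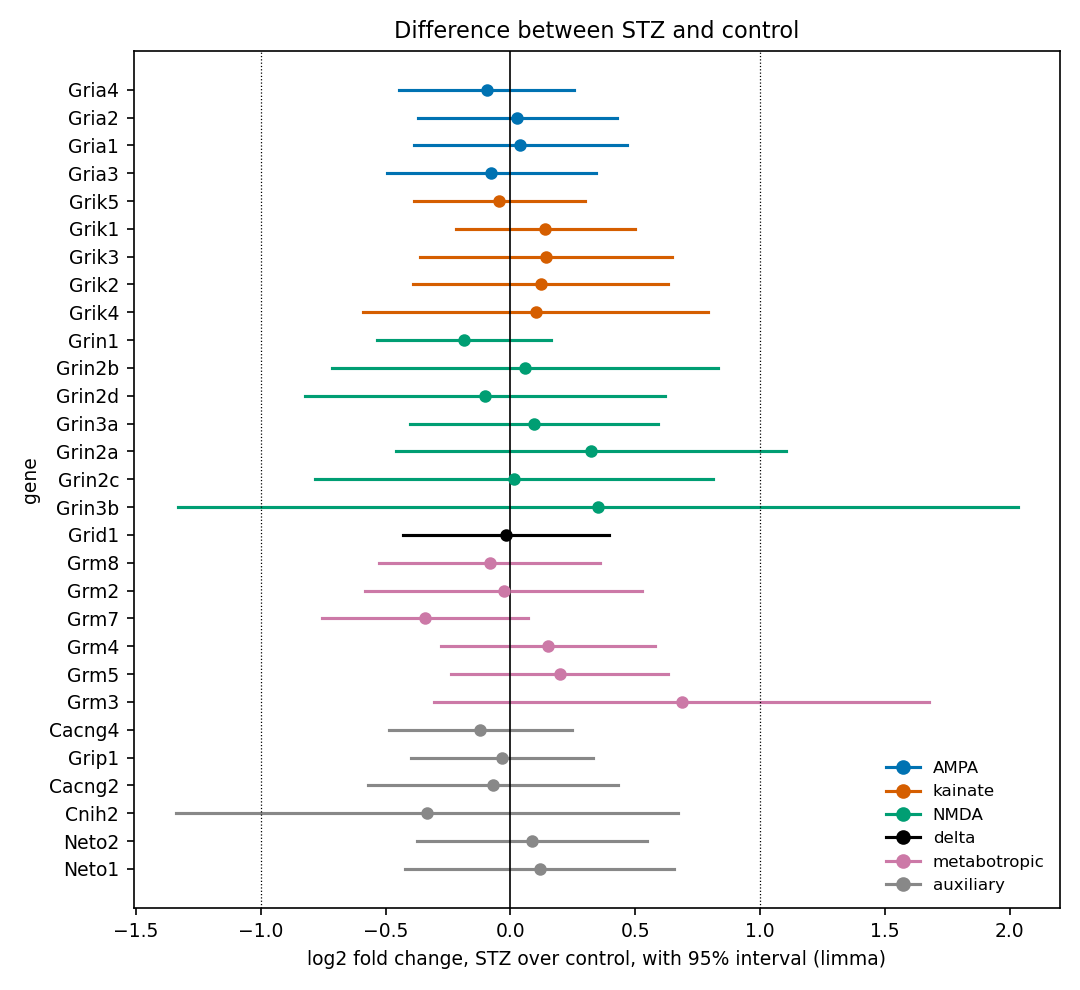
Log2 fold change of each gene, STZ over control, with its 95% interval from limma; the solid line marks no difference and the dotted lines a 2-fold difference. All 29 intervals include 0, and those of Grin3b, Grm3, Cnih2 and Grin2a cross a dotted line.

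**Figure D5:**
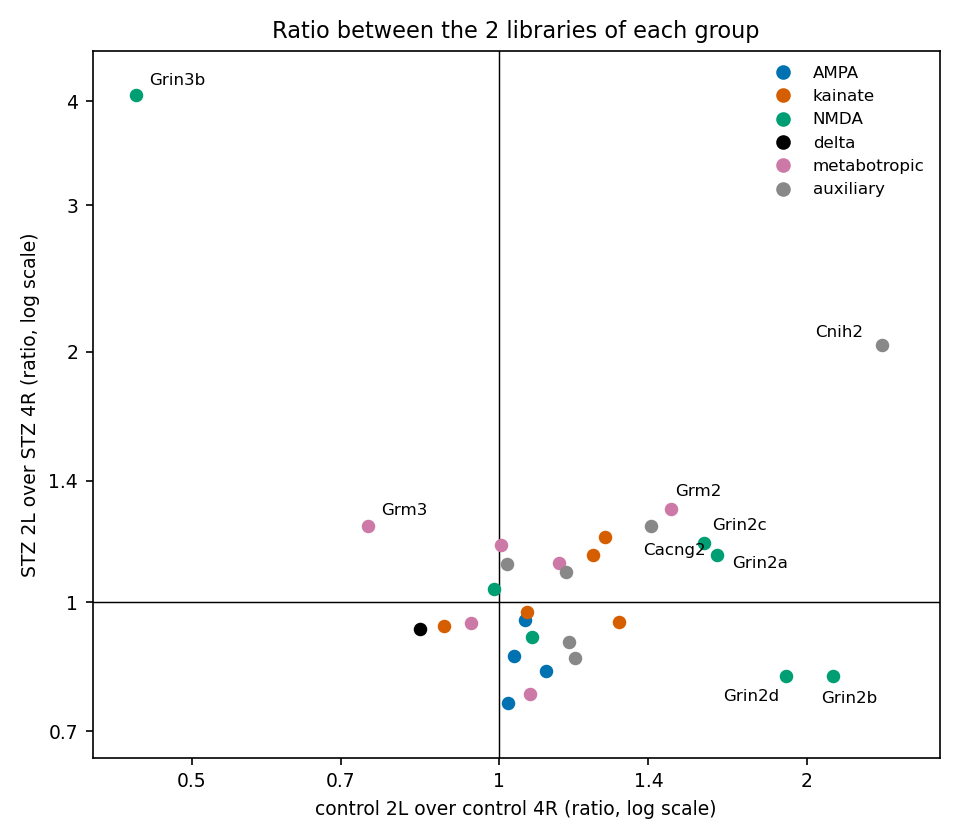
Ratio of the 2L to the 4R library of each gene in controls (x axis) and in STZ (y axis), both on log scales, coloured by class. Most genes lie near 1 on both axes, Cnih2 is above 2 on both, and Grin2b and Grin2d are near 2 in controls and below 1 in STZ.

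Other genes of glutamatergic transmission, 73 in 5 lists, also gave 0 past the threshold in limma, with 27 higher and 46 lower in STZ and a median log2 fold change of -0.05, against the 51.1% of all tested genes that were lower. Among them Grm6, the receptor of ON bipolar cells, stood at -0.16 ± 0.16. Among 18 other auxiliary and trafficking proteins 14 were lower, including Cacng8 at -0.59 ± 0.35, Grip2 at -0.32 ± 0.20 and Cacng3 at -0.24 ± 0.17, while Gsg1l stood at 0.31 ± 0.20. Of 23 scaffold proteins and kinases, 15 were lower, such as Lin7b at -0.54 ± 0.25 and Shank3 at -0.30 ± 0.18, and 8 higher, such as Homer1, which binds Grm5, at 0.25 ± 0.19.

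Transporters and enzymes of glutamate split 6 higher to 7 lower. The vesicular transporter Slc17a7, which fills the vesicles of photoreceptors and bipolar cells, read 115509 and 97985 normalized counts in controls and 93302 and 86957 in STZ, a log2 difference of -0.24 ± 0.23. Summed cone markers read 45082 and 45411 in controls and 34341 and 37138 in STZ, also lower in both STZ libraries. Summed rod markers read 2917710 and 3202710 in controls and 2566540 and 3412750 in STZ, so their groups overlapped. The part of cones and rods in these values was not tested. Slc1a7, a glutamate transporter of rod and bipolar terminals, stood at -0.23 ± 0.16 with both STZ libraries below both controls. Of 16 effectors of metabotropic receptors, Rgs11, a regulator that speeds G protein shut-off in ON bipolar dendrites, read 2842 and 2902 in controls and 2070 and 2344 in STZ (-0.38 ± 0.16; limma, adjusted p = 0.999). Gnai3, an inhibitory G protein subunit, read 769 and 833 in controls and 1180 and 997 in STZ (0.44 ± 0.18; limma, adjusted p = 0.999). These were the 2 genes of the 73 with an unadjusted p under 0.05, against 2.76% of all tested genes.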

How the data were processed

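Polyadenylated retinal RNA was sequenced as Ion Torrent whole transcriptome libraries, per the labels' protocols. Alignment to mm10 used STAR, with Bowtie2 for unmapped reads, and HTSeq and Picard served for counting, per the submitters' processing notes. The authors deposited a signal of read counts scaled by 1 size factor per library. The authors' deposited table also holds their own log2 fold change with its error, a test score, and raw and adjusted p-values. Values were whole multiples of 1 step per column (tolerance 0.01 reads), so reads could be recovered for alternatives. The 2L columns match a label. The 4R columns name only their group, since the labels give 4L.

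The 18127 genes reaching 10 in 2 or more libraries, all 29 members included, were tested in limma 3.58.1 (R 4.3.3) on log2(value + 1). The model held treatment alone and used limma's trended prior, with two-sided tests and Benjamini-Hochberg adjustment over these genes. This scale understates fold changes of low genes, and their errors are standard errors. Class totals and shares were compared by exact permutation tests. Alternatives were edgeR 4.0.16 and DESeq2 1.42.0 on recovered reads, other scalings, filters, pseudocounts and moderation, a block by tag and leaving out each library. The fit was tested on simulated data. On average 40.7 of 100 genes changed 2-fold passed the threshold, and 93.3 of 100 changed 4-fold, with 8 false calls. Coding length is the longest coding sequence in GENCODE M21, and length over all exons was an alternative added after seeing the data. Counting intervals are 95% Clopper-Pearson intervals on reads, carried through those lengths, and cover counting error only. All members were named, with up to 4 genes of smallest p from each pathway list; some genes of this rule are not reported here. Members and lists were chosen with earlier results of these data known.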

Additional observations from a re-analysis of the deposited data

How the results depend on the processing

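The count of members past the threshold stayed at 0 under all 15 alternatives, and so did that of the 73 pathway genes. Over all genes limma called 0, but 13 without a filter on low values, 3 with robust moderation and 11 to 611 with 1 library left out (11 without control 2L, 18 without control 4R, 76 without STZ 2L and 611 without STZ 4R), and DESeq2 called 52. With the column tag as a replicate block limma called 0 genes. The labels do not say that tags pair libraries. Deviations of the 2L libraries correlated at 0.0988 between groups over all tested genes and at -0.267 over the 29 members. The members' median log2 fold change ran from -0.05 (without control 4R) to 0.15 (without control 2L). Sign changes of single members, none of them called, came mostly from leaving out a library. Grin2b turned to -0.031 in DESeq2 and -0.022 in edgeR, and Grin2c to -0.019 in DESeq2, -0.0079 in edgeR and -0.099 after quantile normalization. With each library left out in turn, 20 members changed sign, and the log2 fold changes ran as follows: Gria1 -0.16 to 0.24, Gria2 -0.11 to 0.17, Gria3 -0.18 to 0.031, Grik2 -0.031 to 0.27, Grik3 -0.052 to 0.34, Grik4 -0.069 to 0.27, Grik5 -0.090 to 0.00080, Grin2a -0.028 to 0.67, Grin2b -0.48 to 0.60, Grin2c -0.32 to 0.34, Grin2d -0.57 to 0.37, Grin3b -0.63 to 1.33, Grid1 -0.14 to 0.11, Grm2 -0.30 to 0.25, Grm8 -0.27 to 0.10, Cacng2 -0.32 to 0.18, Cnih2 -0.96 to 0.29, Neto1 -0.0062 to 0.24, Neto2 -0.029 to 0.20, Grip1 -0.11 to 0.042. The other 9 kept their direction, which for the 8 whose groups do not overlap follows from that order. Class totals, as log2 differences, ran as follows: AMPA -0.14 to 0.088, kainate 0.031 to 0.074, NMDA -0.25 to -0.034, delta -0.14 to 0.11, metabotropic -0.10 to 0.047, auxiliary -0.38 to 0.11. Shares, in percentage points of STZ minus control, ran as follows: Gria2 of AMPA 0.36 to 1.57, Grin2a of Grin2a + Grin2b 0.17 to 5.75, Grik4 + Grik5 of kainate -4.22 to -1.72, Grm2 + Grm3 of metabotropic -2.29 to 3.36, Cacng4 of Cacng2 + Cacng4 -2.65 to 1.27, Neto2 of Neto1 + Neto2 -1.05 to -0.0025, Grin2 subunits relative to Grin1 -3.25 to 7.25. The cause was not tested. With 2 libraries a group, no setting shows whether a value belongs to the treatment or to 1 library.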
